A study of Mus musculus with 6 samples.

Results

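Extracellular matrix genes encode the proteins that cells secrete around themselves, the enzymes that cut those proteins and the receptors that bind them. The cytosines described here are those whose nearest transcription start belonged to a gene with a matrix name: the collagens, the laminins, agrin, Hspg2, Comp, Cspg4, Sparc, Acan, Vcan, the numbered thrombospondins, matrilins, fibulins, fibrillins and emilins, the numbered metalloproteinases (Mmp, Adamts, Adamtsl), their Timp inhibitors and the numbered integrin subunits. The rule used names alone and no measured value, but it was set with earlier results of these data known. It found 122 of the 6756 cytosines in the authors' deposited tables, nearest to 48 of the 3344 genes in them.

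The DNA came from LSK cells, the lineage-negative, Sca-1 and Kit positive fraction of mouse bone marrow that holds the blood stem and early progenitor cells, sorted from Tet1 KO mice (3 samples) and WT mice (3 samples), all 6 months old and of the strain labelled CD57BL/6. Tet1 encodes a dioxygenase that oxidises 5-methylcytosine. The kind of Tet1 allele, the tissues that lost it and whether each sample was 1 mouse are not stated in the sources used here. Methylation was read by enhanced reduced representation bisulfite sequencing, which covers mainly CpG-rich fragments and does not separate 5-methylcytosine from 5-hydroxymethylcytosine. Each cytosine in the authors' deposited tables carries 1 difference in percentage points, Tet1 KO minus WT, and the tables hold only cytosines that differed by at least 25 percentage points. Depth and the level in each sample are not used here, so no difference has a replicate error or a test, and the direction rests on the names of the tables and their signs. A change of methylation within cells and a change in the mix of cells inside the LSK gate cannot be told apart in such values. Gene expression was not measured in these samples, so the cell identity was not checked against markers.

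Collagens form fibrils, basement membrane networks and beaded filaments, and laminins and collagen IV make up the sheets on which epithelia and vessels rest. Glycoproteins such as the thrombospondins and matrilins link these fibres, proteoglycans hold water and growth factors, and metalloproteinases remodel the whole. In bone marrow this matrix is made largely by stromal, bone-lining and vascular cells, and blood stem cells hold on to it through integrins.

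Most listed cytosines nearest matrix genes were more methylated in the Tet1 KO: 118 were hypermethylated and 4 hypomethylated, or 96.7% hypermethylated (91.8 to 99.1% as the exact Clopper-Pearson 95% interval, which covers counting error alone). The background was 92.8% over all listed cytosines, which lies inside that interval. Neighbours with a gap under 1000 bp and the same sign were merged into regions, of which 59 were hypermethylated and 4 hypomethylated (93.7% hypermethylated, against a background of 89.4% over all regions). Of the 48 genes, 44 had hypermethylated cytosines alone, or 91.7%, and the same held for 87% of all nearest genes. The direction of the matrix genes was thus near that of the tables as a whole. No gene had cytosines of both directions, since each of the 4 genes with a hypomethylated cytosine had just that 1. The 4 losses had a median of -40.1 percentage points, against -34.1 over the other 482 hypomethylated cytosines, by the authors' deposited table.

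The promoter sequences of 3 members are shown first because their listed cytosines can be placed on the DNA: Cspg4, the gene of the NG2 proteoglycan found on pericytes and glial progenitors, Col6a5, a chain of the beaded-filament collagen VI, and Col9a2, a chain of the cartilage collagen IX. Each line is the 250 bases before the transcription start, 5′ to 3′ on the strand of the gene, from RefSeq (GRCm38.p6). Capitals mark the CG dinucleotides that held a listed cytosine by its distance from the start.
Cspg4: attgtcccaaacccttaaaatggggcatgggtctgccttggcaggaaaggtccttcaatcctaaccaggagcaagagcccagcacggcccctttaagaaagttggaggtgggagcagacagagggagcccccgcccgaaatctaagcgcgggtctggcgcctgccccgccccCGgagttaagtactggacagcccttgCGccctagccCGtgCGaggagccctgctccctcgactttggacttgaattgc
Col6a5: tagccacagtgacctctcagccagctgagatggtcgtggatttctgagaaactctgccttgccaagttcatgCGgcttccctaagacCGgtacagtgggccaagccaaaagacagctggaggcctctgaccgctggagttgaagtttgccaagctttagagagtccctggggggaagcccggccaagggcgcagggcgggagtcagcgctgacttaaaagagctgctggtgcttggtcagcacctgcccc
Col9a2: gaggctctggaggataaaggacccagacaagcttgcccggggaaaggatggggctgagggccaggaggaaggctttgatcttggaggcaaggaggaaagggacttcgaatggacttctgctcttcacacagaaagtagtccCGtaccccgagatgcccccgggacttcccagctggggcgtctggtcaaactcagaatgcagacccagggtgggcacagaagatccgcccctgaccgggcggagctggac
The Cspg4 stretch lies at chr9:56864854-56865103 on the plus strand, the Col6a5 stretch at chr9:105960644-105960893 on the minus strand and the Col9a2 stretch at chr4:121039316-121039565 on the plus strand. They contain 12, 8 and 9 CG dinucleotides, of which 4, 2 and 1 were listed. Whether the other CG dinucleotides were read is not known here. Over 32851 RefSeq promoter windows of the same length the median was 6 CG dinucleotides (quartiles 2 and 16), and 92.1% held at least 1. The 127 windows of genes that fit the matrix name rule had a median of 10. The 3 promoters shown were therefore above the median window in CG number and below its upper quartile. The placement rests on distance, since the tables give mm9 positions. A promoter was shown only if all its listed cytosines in the window fell on a CG, so the 7 cytosines shown had to do so. Of the 9 listed matrix cytosines in such windows 7 fell on a CG, as did 89 of 128 over all genes. The 2 Col7a1 cytosines did not fall on a CG of the RefSeq window, so that sequence is not shown.

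Among the matrix glycoproteins and proteoglycans, 9 of 22 RefSeq genes were nearest to a listed cytosine (40.9%, against a background of 13.7% of all RefSeq protein-coding genes). Of these 9 genes 8 were hypermethylated alone (88.9%), near the background of 87% of all nearest genes. Their 46 hypermethylated cytosines had a median of 43.6 percentage points by the authors' deposited table (range 25.4 to 77.7). Comp encodes cartilage oligomeric matrix protein, a thrombospondin family member that binds collagen fibrils. Its 15 cytosines lay on chromosome 8 between 72900111 and 72901075 (mm9), 2664 to 3628 bp after the start, in 1 region. The lowest, median and highest differences of Comp by the authors' deposited table were 25.4, 42.1 and 70.7 percentage points. By exon, 8 cytosines in exon 7 averaged 42.5, 2 in exon 9 averaged 54.0 and 4 in exon 10 averaged 45.9 percentage points by the authors' deposited table, and the remaining 1 in intron 8, in a CpG island, was at 29.0. The exons did not separate, since exon 7 alone spanned 25.4 to 70.7. In exon 7 of Comp, both strands of 1 CpG were listed, at 39.9 percentage points on the plus strand and 42.1 on the minus strand by the authors' deposited table. That gap of 2.22 points stands beside a median gap of 8.29 points over the 57 CpGs of the whole tables that were listed on both strands.

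Cspg4 had 13 cytosines on chromosome 9 with a step between its promoter and its exons. The 9 promoter cytosines, from 78 bp before to 100 bp after the start (56712833 to 56713011, mm9), had a lowest, median and highest difference of 39.1, 68.3 and 77.7 percentage points by the authors' deposited table. The 4 upstream cytosines, all on the plus strand and marked in the sequence above, were at 77.7, 76.0, 58.9 and 74.8 percentage points by the authors' deposited table, in order towards the start. The 5 cytosines after the start, all on the minus strand, were at 39.1, 65.1, 44.3, 75.7 and 68.3 percentage points by the authors' deposited table. Far from the start, 1 cytosine in exon 3 and 3 in exon 4 of 10 were at 32.8, 36.3, 31.7 and 37.6 percentage points by the authors' deposited table. All 4 exon values lay below all 9 promoter values. Close cytosines on the same strand can be read from the same molecules, so the 9 promoter values are not 9 independent measurements.

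Matn1, which encodes a cartilage matrilin that bridges collagen and proteoglycans, had 9 cytosines on chromosome 4, in 6 regions. The 4 in intron 5 of 7, within 47 bp of each other (130508633 to 130508680, mm9), were at 73.0, 65.7, 51.0 and 63.0 percentage points by the authors' deposited table. The 5 intergenic ones, 102168 to 446852 bp past the start, were at 37.1, 26.0, 27.7, 54.6 and 34.2 percentage points by the authors' deposited table. The intron values overlapped the intergenic ones only through the site at 54.6 percentage points. At such distances the gene name says only that no other annotated start was nearer.

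The plot of differences along the 6 genes with the most cytosines shows the step at Cspg4 and the scattered values of Matn1.

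**Figure D1:**
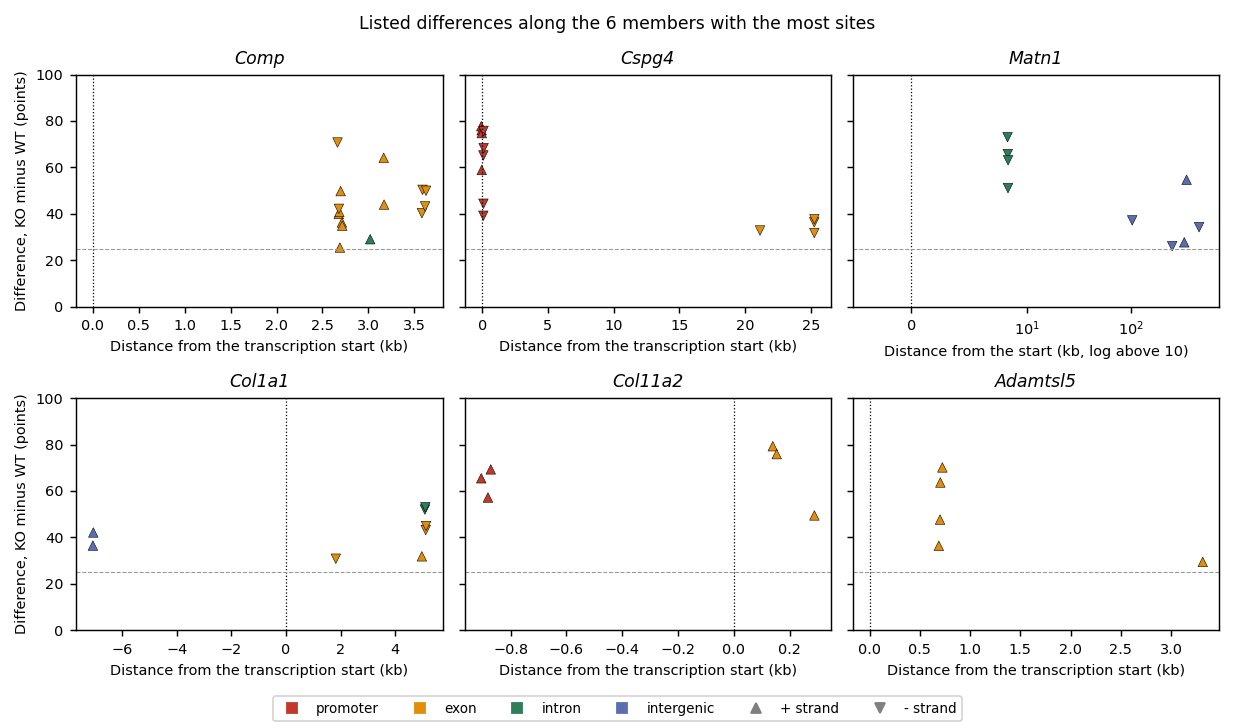
Each point is 1 listed cytosine, with its distance from the transcription start of the gene on the horizontal axis (kb, positive after the start, logarithmic above 10 kb for Matn1) and its difference, Tet1 KO minus WT, on the vertical axis (percentage points); colour gives the annotated feature and the triangle the strand. The dashed line is the list minimum of 25 points. The 9 promoter cytosines of Cspg4 lie at 39.1 to 77.7 points, above its 4 exon cytosines at 31.7 to 37.6.

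Matn4, another matrilin gene, was nearest to 3 cytosines on chromosome 2 (164233925 to 164234300, mm9), at 75.6, 60.3 and 32.1 percentage points by the authors' deposited table. These lay in exon 6 and intron 6 of Rbpjl, a neighbouring gene of a transcription factor, and not in Matn4 itself. Emilin3, of the elastin microfibril interface family, had a promoter cytosine 500 bp before its start at 56.0 percentage points and an intergenic one 20278 bp before it at 52.4 by the authors' deposited table. Fbln2, a fibulin of basement membranes and elastic fibres, had only intergenic cytosines, at 41.2 and 36.4 percentage points by the authors' deposited table, 64671 and 72346 bp past the start. The thrombospondin genes Thbs1 and Thbs4 had 1 cytosine each in intron 1, at 31.2 and 33.4 percentage points, 305 and 368 bp after the start, by the authors' deposited table. Sparc, the gene of osteonectin, a collagen-binding glycoprotein of bone, was the member of this group with a loss: its cytosine in intron 8 of 9 on chromosome 11 was at -34.0 percentage points by the authors' deposited table, 22292 bp after the start. Acan, Vcan and the 2 fibrillin genes were nearest to no listed cytosine.

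All listed cytosines nearest collagen genes were hypermethylated. Of 44 RefSeq collagen genes 17 were listed (38.6%, against a background of 13.7%), with 41 hypermethylated cytosines and 0 hypomethylated ones, and a median of 43.6 percentage points by the authors' deposited table (range 27.3 to 79.3). The background was 92.8% hypermethylated over all listed cytosines. By gene, all 17 listed collagen genes were hypermethylated alone (100%), against a background of 87% of all nearest genes. Whether collagens differ from the background was not tested. Col11a2, a chain of the fibril-forming collagen XI of cartilage, had the highest mean of the 8 matrix genes with at least 4 cytosines, 66.1 percentage points over its 6 cytosines by the authors' deposited table. On chromosome 17, 3 promoter cytosines 871 to 905 bp before the start (34175477 to 34175511, mm9) were at 65.5, 57.2 and 69.3 percentage points by the authors' deposited table. In exon 1, 139 to 288 bp after the start, 2 cytosines of the 5′ UTR were at 79.3 and 75.9 and 1 coding cytosine at 49.4 percentage points by the authors' deposited table. The 2 clusters flank the start, and their values overlap.

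Col1a1, the main chain of bone and skin collagen, had 8 cytosines on chromosome 11, with a lowest, median and highest difference of 30.8, 42.6 and 53.0 percentage points by the authors' deposited table. Around exons 13 and 14 of 51, 5 cytosines within 153 bp (94802559 to 94802712, mm9) were at 31.8, 52.0, 53.0, 43.1 and 44.9 percentage points by the authors' deposited table. A cytosine in exon 2 was at 30.8, and a pair 7058 and 7073 bp before the start was at 42.1 and 36.5 percentage points by the authors' deposited table. None lay in the annotated promoter of Col1a1.

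Col4a3 and Col4a4 encode chains of the collagen IV network of the kidney and inner ear basement membranes and are transcribed away from each other from neighbouring starts. Their 5 promoter cytosines formed 1 region on chromosome 1 (82583162 to 82583604, mm9). The 4 nearest Col4a4 were at 43.3, 36.9, 43.7 and 50.1 percentage points, 217 to 262 bp after its start, and the 1 nearest Col4a3 was at 30.0, 108 bp after its start, by the authors' deposited table. Each of these cytosines was annotated as promoter of the partner gene, so the 2 names stand for the same stretch. Col8a2, a chain of the corneal and vascular collagen VIII, had 4 cytosines in intron 1 of 3 at 28.2, 64.2, 35.1 and 43.6 percentage points by the authors' deposited table, 737 to 1521 bp after the start.

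Of the other promoter values among collagens, Col6a5 had cytosines 162 and 177 bp before its start at 49.3 and 57.0 percentage points, and Col9a2 had 1 at 68.0, 108 bp before its start, by the authors' deposited table. Col9a2 also had a cytosine in intron 25 of 31 at 47.4 percentage points by the authors' deposited table. Col7a1, the anchoring fibril collagen of skin, had 2 promoter cytosines 136 and 139 bp before its start, at 49.7 and 40.4 percentage points by the authors' deposited table. Col12a1, a collagen of fibril surfaces, had 3 in intron 2 at 46.0, 37.5 and 28.1 percentage points, and Col15a1 had 2 in intron 2 at 35.7 and 35.0 by the authors' deposited table. The 8 collagen genes with 1 cytosine ranged from 27.3 percentage points for Col6a3, which lay 89713 bp from its start, to 60.7 for the intergenic cytosine nearest Col22a1, by the authors' deposited table.

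Proteinases and their inhibitors were listed for 17 of 51 RefSeq genes (33.3%, against a background of 13.7%). Of these 17 genes 15 had hypermethylated cytosines alone (88.2%), near the background of 87%. The 27 hypermethylated cytosines had a median of 44.2 percentage points by the authors' deposited table (range 25.6 to 73.2). Adamtsl5, an ADAMTS-like glycoprotein without protease activity, had 4 cytosines of the 5′ UTR within 35 bp on chromosome 10 (79810433 to 79810468, mm9), at 70.1, 63.6, 47.6 and 36.4 percentage points, and 1 in exon 5 at 29.4 by the authors' deposited table. The 4 values are given in order towards the start and decrease in that order. Mmp23, a membrane-bound metalloproteinase, had 3 cytosines within 34 bp across intron 2 and exon 3 at 69.8, 65.5 and 73.2 percentage points by the authors' deposited table, a spread of 7.67 points. Adamts5 and Adamts4, the aggrecan-cleaving enzymes of cartilage, were both hypermethylated near their starts. Adamts5 had promoter cytosines 431 to 539 bp before its start at 29.4, 44.2 and 25.6 percentage points, and Adamts4 had cytosines in exon 1, 580 and 827 bp after its start, at 53.5 and 44.7 by the authors' deposited table.

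Mmp11, a stromal metalloproteinase, had cytosines in intron 1 at 65.3 and 30.4 percentage points, 705 and 351 bp after its start, by the authors' deposited table. Adamts2, which trims the amino end of procollagen, had 1 cytosine in intron 2 at 62.9 and 1 intergenic cytosine at 29.0 percentage points by the authors' deposited table. The intergenic cytosine nearest Mmp19 was at 62.6, and the gelatinase gene Mmp9, expressed by neutrophils, had 1 cytosine in intron 12 at 44.9 percentage points by the authors' deposited table. Adamtsl4 had 1 cytosine in exon 8 of 18 at 27.6 percentage points and 1 intergenic cytosine at 34.4 by the authors' deposited table. Timp2 was the only listed inhibitor gene of 4 and had an intergenic cytosine at 44.5 percentage points, 5722 bp from its start, by the authors' deposited table. Losses occurred at Adamts9, in exon 4 of 30 on chromosome 6 at -48.0 percentage points, and at Adamtsl2, in intron 8 of 18 on chromosome 2 at -41.9, by the authors' deposited table. These lay 11437 and 9104 bp after their starts.

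Integrins, the receptors for collagen, laminin and fibronectin, were listed for 4 of 24 RefSeq genes (16.7%, near the background of 13.7%), with 1 cytosine each. Itgb3 encodes the beta subunit of the platelet fibrinogen receptor. The cytosine nearest to it had the largest difference of any matrix gene, 85.1 percentage points by the authors' deposited table, in a CpG island at position 104547084 of chromosome 11 (mm9), 77770 bp past the start. Itga8 and Itgb4 were nearest to cytosines at 43.6 percentage points, intergenic, and 33.4, in exon 17 of 39, by the authors' deposited table. Itga3, a laminin receptor subunit, had a loss of methylation at an intergenic cytosine 1659 bp before its start, -38.2 percentage points by the authors' deposited table. On the same chromosome this cytosine lies 136975 bp from the last hypermethylated cytosine of Col1a1, so cytosines of matrix genes at this distance were listed in opposite directions.

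**Figure D2:**
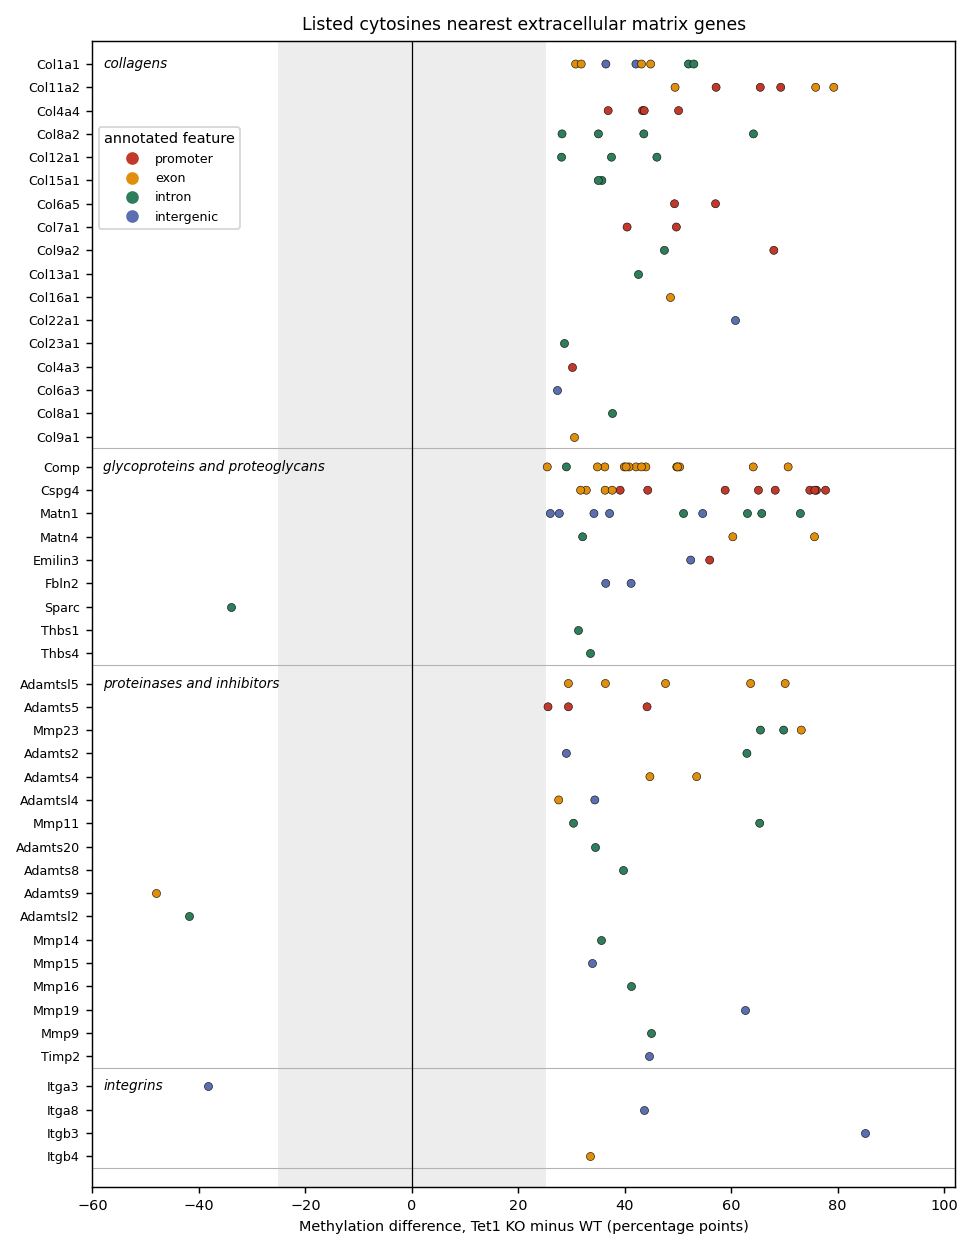
Each row is a matrix gene, grouped by role, and each point is 1 listed cytosine at its difference, Tet1 KO minus WT (horizontal axis, percentage points), coloured by annotated feature. The grey band marks differences under 25 points, which the tables do not hold. The losses are those of Sparc, Adamts9, Adamtsl2 and Itga3, and the largest gain is the 85.1 points nearest Itgb3.

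The size of the gains was next set beside the rest of the tables. The 118 hypermethylated cytosines of matrix genes had a median of 43.6 percentage points (95% interval of the median 40.4 to 48.5, from binomial order statistics, counting error only), and the other 6152 had a median of 41.0, by the authors' deposited table. The median of the rest lies inside that interval. The upper part of the distribution stood farther off: 29 of 118 (24.6%) were at 60 percentage points or more, against 741 of 6152 other cytosines (12.0%), by the authors' deposited table. These 29 belonged to 14 genes, and without Cspg4 the share was 21.9%. Cytosines of 1 gene are not independent and no test was made, so both shares are given as a description.

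**Figure D3:**
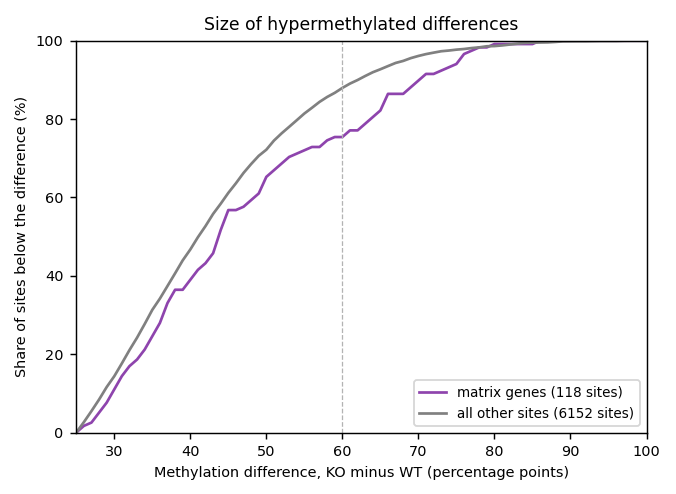
The curves give the share of hypermethylated cytosines (vertical axis, %) below each difference, Tet1 KO minus WT (horizontal axis, percentage points), for the 118 of matrix genes and the 6152 others. At the dashed line, 60 points, 24.6% of the matrix cytosines and 12.0% of the others are at or above it.

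Larger shares of the matrix cytosines than of the rest lay near starts, in promoters and in exons, again as a description with no test. Promoters held 26 of 118 hypermethylated cytosines (22.0%, exact interval 14.9 to 30.6%), against 11.0% of the others, and exons held 39 (33.1%, 24.7 to 42.3%), against 19.3%. Intergenic sequence held 19 (16.1%, 9.98 to 24.0%), against 36.5%, and introns 34 (28.8%), against 31.3%. Repeats held 2 (1.69%), against 7.22%. Within 5000 bp of a start lay 77 (65.3%), against 45.5% of the others, and the median distance was 2694 bp, against 7126.5 bp. Comp alone gave 14 of the 39 exon cytosines and Cspg4 gave 9 of the 26 promoter cytosines. Without Comp the exon share was 24.3% (exact interval 16.4 to 33.7%), and without Cspg4 the promoter share was 16.2% (9.72 to 24.7%). Each of these intervals covers the share of the others.

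Counted by region, where each cluster counts once, the gap was smaller. Promoters made up 8 of 59 hypermethylated matrix regions (13.6%, exact interval 6.04 to 25.0%), against 10.7% of the other regions, and exons 14 (23.7%, 13.6 to 36.6%), against 14.4%. The interval for promoters covers the share of the rest, and that for exons does too. The intergenic share by region was 30.5% (19.2 to 43.9%), against 38.6%. By gene, 9 of the 44 hypermethylated matrix genes had a promoter cytosine (20.5%), against 14.1% of the others. Of the 39 exon cytosines 34 lay in exon 2 or later (87.2%, 14 of them in Comp), against 65.9% of the others. Of the 34 intron cytosines 23 lay in intron 1 or 2 (67.6%), near the 68.0% of the others.

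**Figure D4:**
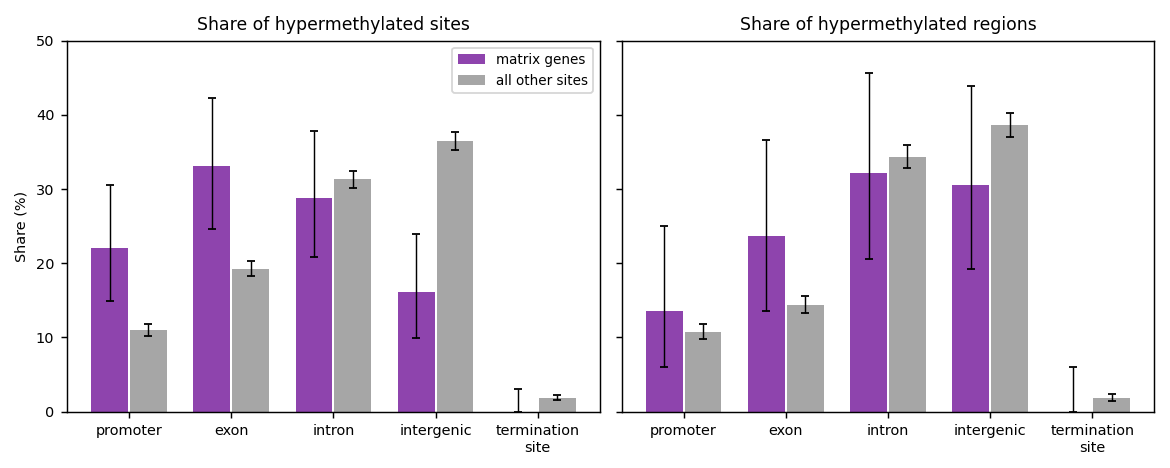
Bars give the share (vertical axis, %) of hypermethylated cytosines (left) and hypermethylated regions (right) in each annotated feature, for matrix genes and for all others; error bars are exact 95% intervals, for counting error only. Promoter cytosines were 22.0% against 11.0%, and promoter regions 13.6% against 10.7%.

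Differences were spread unevenly over the members. The 8 genes with at least 4 cytosines held 64 of the 122 (52.5%), and 26 genes had 1 each. Genes with a single cytosine were also common in the rest. Just 1 hypermethylated cytosine was listed for 22 of the 44 hypermethylated matrix genes (50%), against 1667 of 2974 others (56.1%). Of the 20 matrix regions with at least 2 cytosines, all hypermethylated, 15 were listed on 1 strand alone. The same held for 857 of the 1205 such hypermethylated regions over all listed cytosines. In the 20 matrix regions, the difference between the highest and the lowest cytosine had a median of 19.4 percentage points. It ran from 0.670 at Col15a1 to 45.2 at Comp. Over all 1205 such hypermethylated regions the median was 12.4. This range tends to widen with the number of cytosines in a region, which was not matched, so the medians do not show that matrix regions are more uneven. The cytosines fell on 14 chromosomes, most on chromosomes 4 (22), 9 (21), 8 (16) and 11 (16), with 0 on X. Single genes gave much of these counts: Comp 15 on chromosome 8, Cspg4 13 on chromosome 9, Matn1 9 on chromosome 4 and Col1a1 8 on chromosome 11. The counts were not set beside those of all listed cytosines, so they show no preference for a chromosome.

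The last count concerns how many matrix genes were listed at all. Of the 154 RefSeq protein-coding genes that fit the name rule 48 were nearest to a listed cytosine (31.2%), against a background of 13.7% of all protein-coding genes. The members and role groups were chosen with earlier results of these data known, so these listing shares are a description. Which cytosines were read in each gene is not used here, and gene length and CpG content were not matched, so their part in this difference was not tested. Of the 122 cytosines 93 lay in the gene whose name they carry, 9 in another gene or its promoter (5 of them in the shared Col4a3 and Col4a4 promoter) and 20 between genes. For 9 genes all cytosines were intergenic.

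Other genes of matrix structure, cross-linking and cell surface proteoglycans, from a list of 85 outside the name rule, gave 23 listed genes (27.1%, against a background of 13.7%). This list too was drawn up with earlier results of these data known. Of these 19 had hypermethylated cytosines alone (82.6%, against a background of 87%) and 4 a hypomethylated one. By cytosine, 44 of 48 were hypermethylated (91.7%), near the background of 92.8%. Their median gain was 36.4 percentage points, below the 41.1 of all hypermethylated cytosines and the 43.6 of the genes within the name rule, by the authors' deposited table. Whether these medians differ was not tested. Lox, the enzyme that cross-links collagen and elastin, had 8 cytosines in its exons and introns averaging 38.6 percentage points, and Tnxb, a tenascin of connective tissue, had 6 averaging 39.3, by the authors' deposited table. Hapln3, a hyaluronan link protein, had 2 at 65.3 and 67.4 percentage points by the authors' deposited table. The 4 losses were at Fn1, the gene of fibronectin, at -32.7, Frem1 at -29.5, Gpc4 at -46.4 and Tll2 at -35.1 percentage points by the authors' deposited table.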

How the data were processed

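Bisulfite sequencing data of LSK cells from Tet1 KO (3) and WT (3) mice were used as 2 deposited tables. The authors' deposited differences are in percent (percentage points), 1 per cytosine over all samples, and start at 25. Per the submitters' processing notes, Bismark and the mm9 build were used; the sources used here do not name the differential caller, the coverage minimum or how replicates were pooled. The tables hold 0 columns with values per sample.

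Members were chosen by gene name; members, role groups and the list of other matrix genes were chosen with earlier results of these data known. The genes named were those with at least 4 cytosines, a hypomethylated cytosine or a promoter cytosine, and those of the 5 largest and 5 smallest gains; other genes named were chosen after their values were seen. Of the members, 1 gene is counted but not reported here. Cytosines under 1000 bp apart were joined into regions, which took their commonest feature. The deposited distance changes sign with the strand of the cytosine and was turned to the orientation of the gene: for 430 of 431 starts with cytosines on both strands this gave 1 start position. Gene identifiers matched RefSeq (GRCm38.p6) for 99.8% of cytosines. Intervals are exact Clopper-Pearson at 95%. Joining and intervals were tested on simulated data, and the name rule on a chosen set of gene names. Python 3.11.15, pandas 2.3.3, numpy 2.4.6, scipy 1.17.1 and matplotlib 3.10.9 were used.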

Additional observations from a re-analysis of the deposited data

How the results depend on the processing

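The hypermethylated share of cytosines and regions, the count of genes hypermethylated alone, the median gain and the promoter and exon shares were each recomputed with at least 40 percentage points, without integrins and with both strands of a CpG counted once. Joining within 200 or 5000 bp was applied to the region share, and leaving out intergenic cytosines to all but the promoter and exon shares. Added after the data were seen were leaving out Comp or Cspg4 (median gain, promoter and exon shares) and keeping only cytosines inside the named gene (cytosine share and median gain). Of these 32 recomputed values 30 stayed within the interval of the reported value or, for the gene count, within 1.5 times of it. That limit for the gene count is wide: with at least 40 percentage points, 30 of 32 genes were hypermethylated alone, against the reported 44 of 48. Autosomes alone gave 6 more values, which could not move since 0 matrix cytosines lay on X. The median gain was 52.7 percentage points with at least 40, by construction, since smaller gains were removed. The exon share was 24.3% without Comp, which holds 14 of the 39 exon cytosines. No paired analysis was possible because the tables hold no values per sample, and leaving out replicates was not possible for the same reason. Depth per cytosine is unknown, so the precision of a single difference is not known.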
